A study of Homo sapiens
Mus musculus with 24 samples.

Results

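With exceptions named below, the genes described here encode the subunits of oxidative phosphorylation, measured in breast tumor xenografts that hold human tumor cells and murine host cells side by side. Members were taken by symbol, without regard to case: the NDUFA, NDUFB, NDUFC, NDUFS and NDUFV genes, SDHA to SDHD, the UQCR genes, COX4 to COX8, the ATP5 genes and the mitochondrial ND, CO, CYB and ATP genes. This gave 186 of 35547 genes, of which 89 of 16667 were in the murine table and 97 of 18880 in the human table. The members include paralogs and genes of other function that the symbols match, namely UQCRHL, ATP5MGL, ATP5IF1 and COX7A2L. Of the murine members 82 are encoded in the nucleus and 7 in mitochondrial DNA, and of the human members 84 and 13. MDA-MB-231 cells, a human triple negative breast cancer line, were injected under the skin at the base of the neck of B6/Rag1KO mice aged 14 weeks, which lack mature T and B lymphocytes. Every tumor came from this 1 line, and each library holds the RNA of a piece of tumor tissue from 1 mouse, with the host tissue in it. Mice on a high fat diet received a saline vehicle (CTRL, n = 4), weekly doxorubicin with cyclophosphamide (Chemo, n = 5), a moringa seed concentrate in the diet (MC, n = 5) or the concentrate with the same 2 drugs (MC + Chemo, n = 6). A further group stayed on the lean diet with no intervention and was not randomized (Lean, n = 4). Libraries are named below by group and mouse number, and where values follow one another they are in the order CTRL 17, 31, 44 and 70, Chemo 19, 30, 33, 34 and 67, MC 6, 41, 42, 48 and 59, and Lean 3, 21, 24 and 54. The group of MC + Chemo 5 comes from its title, since another of its labels gives the concentrate alone.

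Oxidative phosphorylation takes place in the inner mitochondrial membrane. Complex I oxidizes NADH and complex II oxidizes succinate, both passing electrons to ubiquinone. Complex III hands them on to cytochrome c, complex IV passes them to oxygen, and complex V, the ATP synthase, uses the proton gradient that the others build. Complexes I, III, IV and V are mosaics of subunits from both genomes of the cell, whereas complex II is wholly nuclear. Some nuclear subunits of complex IV exist as paralogs that replace each other by tissue, with COX6A2, COX7A1 and, in rodents, Cox8b known from heart, skeletal muscle or brown fat, and COX6A1, COX7A2 and COX8A expressed broadly. Skeletal muscle and brown adipose tissue are rich in mitochondria.

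Total counts per library ran from 3664056 to 9892470 for the murine and from 7796231 to 17621273 for the human table. Murine counts made up 26.01% to 52.2% of the counts of a library, the highest share being that of MC 41. A list of 10 genes known from MDA-MB-231 cells took 0.431% to 1.16% of the human counts, with no gene at 0 in any group. The murine lists for skeletal muscle and for brown adipocytes were each set against their highest level in CTRL and Lean. The muscle list was above it in 6 libraries, namely Chemo 30, MC 41, MC 48 and MC + Chemo 5, 43 and 47. The brown adipocyte list was above it in 4, namely MC 6, MC 41 and MC + Chemo 5 and 52. In all, 8 libraries were above for either list. Since CTRL and Lean set that limit, they could not be among the 8. The 24 genes of the muscle list took at most 0.0185% of the murine counts in CTRL and Lean, 0.583% in MC 41, 0.953% in MC + Chemo 5 and 1.55% in MC + Chemo 43. The 7 genes of the brown adipocyte list took at most 0.00950% in CTRL and Lean, 0.0558% in MC + Chemo 52, 0.142% in MC 6 and 0.486% in MC 41. The 16 genes of the white adipocyte list took 0.0272% to 0.880% in CTRL, Chemo and Lean and were above this range in MC 41 (1.87%) and MC + Chemo 52 (2.87%). The macrophage list was lowest in MC 6 and MC 41, at 0.184% and 0.225% against 0.480% to 0.556% in CTRL. No gene of these 4 lists was at 0 in every library of a group. The 6 genes of the erythroid list took 0.0123% to 0.0451% in CTRL, less than in any library of the other groups (0.0601% to 0.405%), and its part in the comparisons with CTRL was not tested. Some results below rest on the 8 libraries, and several counts and medians of members are also given without them.

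Levels are normalized counts, that is counts divided by the size factor of the library, from reads at the 3′ end of transcripts, so they are not divided by gene length. In the murine table the nuclear members with the highest mean over the 24 libraries were Ndufb8 (1039 normalized counts, an accessory subunit of complex I), Sdhb (1012, the iron-sulfur subunit of complex II), Uqcrh (1306, the hinge subunit of complex III), Cox8a (1984, complex IV) and Atp5g3 (3817, a gene for the c ring of complex V). In the human table they were NDUFS5 (4128, complex I), SDHC (794, a membrane anchor of complex II), UQCRB (4797, complex III), COX6C (3697, complex IV) and ATP5MG (11162, complex V). The mitochondrial gene with the highest mean was mt-Nd4 in the murine table (65626) and MT-ND4 in the human table (152910). The murine namesakes of NDUFS5 and ATP5MG, Ndufs5 and Atp5l, were near the bottom of their table with means of 14.9 and 8.37, as was Atp5g2 with 21.9. Genes of this kind have near-identical processed copies, and how the counting treated reads that fit several copies is not given in the sources used here, so the levels of these 3 genes are uncertain.

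All 13 protein genes of human mitochondrial DNA are in the human table. MT-ND4 took 17.01% to 22.4% of the mitochondrial member counts of a library, MT-CO3 13.4% to 24.9%, MT-ND3 11.2% to 17.3% and MT-ND6 at most 0.133%. MT-ATP8 overlaps MT-ATP6 and MT-ND4L overlaps MT-ND4 on shared transcripts, and MT-ND6 lies on the opposite strand from the others, so the split of reads within these pairs and the level of MT-ND6 are uncertain. The 7 murine genes are mt-Nd1 to mt-Nd6 and mt-Co1, of which mt-Nd4 took 38.6% to 56.9%. The murine cytochrome b gene is spelled mt-Cytb and was not matched by the symbol rule. Its values are given beside those of the members.

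To see whether host oxidative phosphorylation transcripts differed between groups, the counts of the members were first summed and divided by all murine counts of the library. The nuclear members took 0.740, 0.822, 0.644 and 0.988% in the CTRL libraries, 1.04, 0.805, 0.783, 0.860 and 0.793% in Chemo, 1.37, 3.01, 0.828, 0.884 and 0.860% in MC and 0.851, 0.836, 0.988 and 0.769% in Lean. In MC + Chemo they ranged from 0.657% to 1.74% with a median of 1.08%. MC 6 and MC 41 stood above every CTRL, Chemo and Lean library, as did MC + Chemo 5, 43 and 52, and the other libraries of these groups lay within the CTRL, Chemo and Lean range. In bulk tissue, more cells of a type and more RNA per cell cannot be told apart.

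The mitochondrial members took 0.780, 1.34, 0.729 and 1.12% of the murine counts in CTRL, 1.31, 1.28, 0.685, 1.28 and 1.07% in Chemo, 5.9983, 13.6, 1.35, 1.61 and 1.34% in MC and 1.73, 1.19, 1.03 and 1.02% in Lean. MC + Chemo ranged from 0.738% to 2.52% with a median of 1.503%. MC 6 and MC 41 again stood far above the rest, and MC + Chemo 52, with the highest nuclear share of its group, was inside the range of the other groups for the mitochondrial share at 1.37%. The group means of the nuclear share were 0.798 ± 0.146% (SD, n = 4) in CTRL and 1.39 ± 0.933% (SD, n = 5) in MC, and without MC 6 and MC 41 the MC mean was 0.857 ± 0.0279% (SD, n = 3). The group means of the mitochondrial share were 0.990 ± 0.287% (SD, n = 4) in CTRL and 4.78 ± 5.33% (SD, n = 5) in MC, and 1.43 ± 0.153% (SD, n = 3) in MC without the same libraries.

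The number of mitochondrial counts for each nuclear count was 1.05, 1.63, 1.13 and 1.13 in CTRL and 4.38, 4.53, 1.63, 1.82 and 1.56 in MC. The highest values of all 24 libraries were those of MC 6 and MC 41, in which the mitochondrial members exceeded the other libraries by more than the nuclear members did. In MC 41 the mitochondrial members were 8.82 to 31.7 times the median of the other 23 libraries, whereas the median of this ratio over the nuclear members was 5.76. In MC 6 the medians were 4.81 for mitochondrial and 1.89 for nuclear members, and in MC + Chemo 52 they were 1.15 and 2.29. MC + Chemo 52 had the lowest number of mitochondrial per nuclear counts, 0.791.

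Genes were then compared one by one with the edgeR quasi-likelihood test over all murine genes, calling a gene at an adjusted p below 0.05. Of the 89 murine members 88 passed the filter on low counts in the fit to the 20 high fat libraries, Cox4i2 being the exception, and all 89 in the fit with Lean. Low members pass such a filter more easily through a group in which they are high.

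Against CTRL, murine members were mostly higher in MC, and none was called. The median log2 fold change was 1.216 for the 81 nuclear and 2.23 for the 7 mitochondrial members, beside 0.00 for all genes tested. Values above 0 were found for 77 nuclear and 7 mitochondrial members (50% of all genes). An unadjusted p below 0.05 in the higher direction was found for 60 nuclear and 6 mitochondrial members (8.73% of all genes) and in the lower direction for 0 members (3.04% of all genes). At an adjusted p below 0.05, edgeR called 0 members and 0 genes (0%), and the lowest adjusted p of a member was 0.242. DESeq2 called 17 members, all higher in MC (1.76% of all genes it gave an adjusted p). They were mt-Nd1, mt-Nd2, mt-Nd4, mt-Nd5, mt-Co1, Ndufa10, Ndufb4, Ndufb8, Ndufs7, Sdha, Sdhb, Uqcrc2, Uqcrq, Cox7a1, Cox8b, Atp5k and Atp5o.

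This difference followed 2 libraries. Without MC 41 the members at an unadjusted p below 0.05 were 13 in place of 66, and the medians were 0.42 for nuclear and 0.97 for mitochondrial members. Without MC 6 and MC 41 there was 1 such member, with medians of 0.13 and 0.25. Those are also the libraries with the highest brown adipocyte list, and without all 8 libraries with raised muscle or brown adipocyte markers there were 0 such members, with medians of 0.08 and 0.10, though only 2 MC libraries remain then. The RNA of MC 41, MC 42 and Lean 3 went through an extra column cleanup, and without these 3 libraries there were 26 such members.

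By complex, the median log2 fold change of the nuclear members in MC against CTRL was 1.14 for the 35 of complex I, 1.62 for the 4 of complex II, 1.57 for the 8 of complex III, 1.35 for the 17 of complex IV and 0.81 for the 17 of complex V. All 8 of complex III and 29 of complex I had an unadjusted p below 0.05, and 8 of complex V, beside 8.73% of all genes in the higher direction. Complex V had the lowest median. Differences between complexes were not tested.

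**Figure D1:**
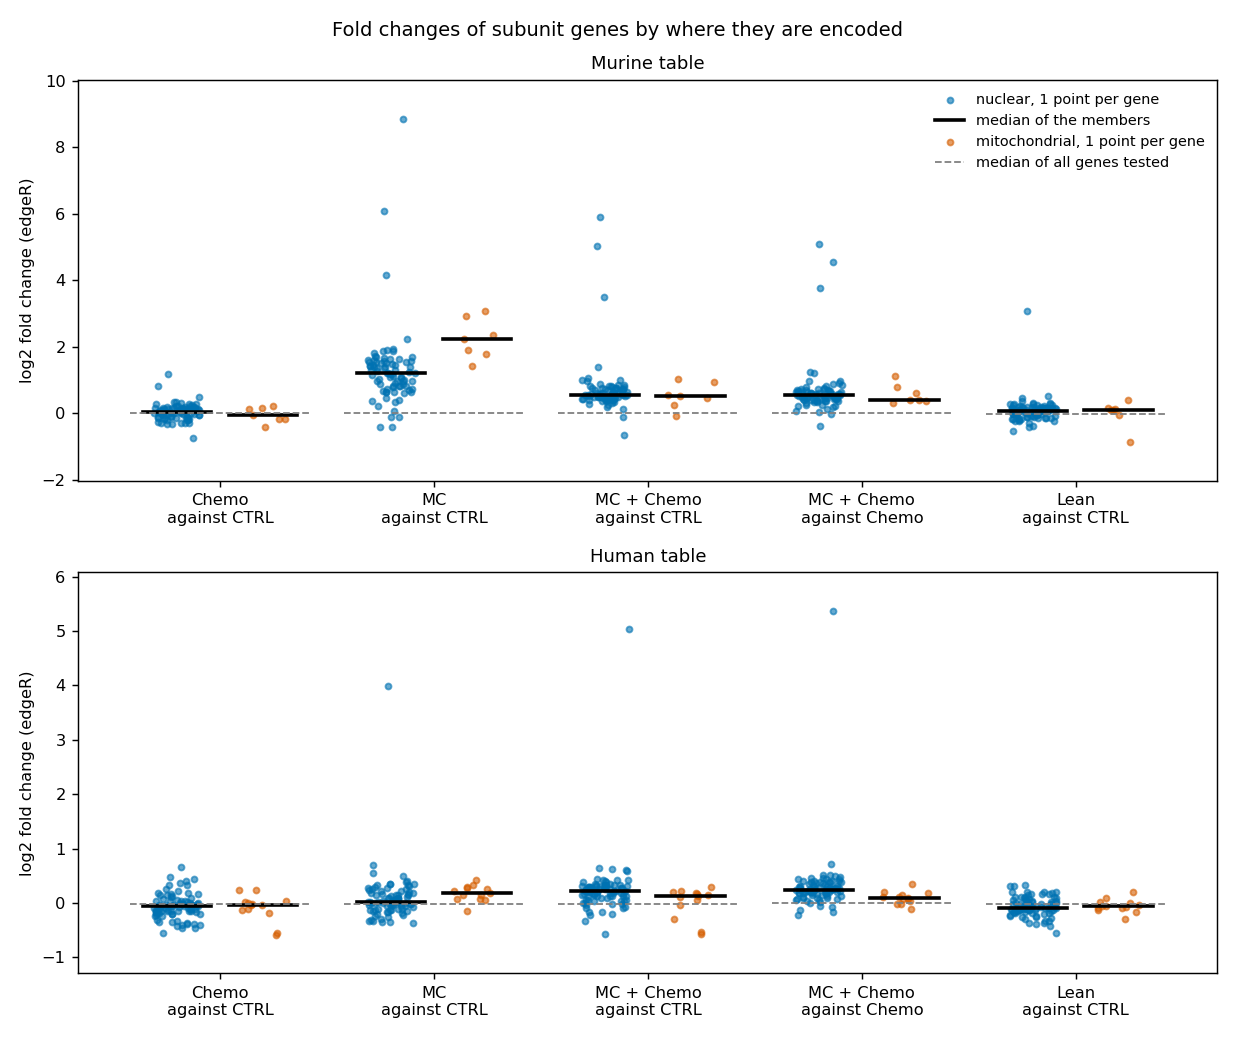
Log2 fold changes of each member (vertical axis, edgeR) in the 5 comparisons (horizontal axis), with 1 point per gene, blue for nuclear and orange for mitochondrial members, a black line at the median of the members and a dashed line at the median of all genes tested. The murine members lie above the dashed line in MC and MC + Chemo, with Cox8b highest in MC against CTRL at 8.86, and the human members stay near it apart from COX6A2.

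Of the mitochondrial genes, mt-Nd4, a core membrane subunit of complex I, had the lowest p. Its normalized counts were 19212, 34417, 18059 and 23979 in CTRL, 32949, 33905, 12816, 30291 and 30280.2 in Chemo, 219804, 578501, 38163, 44314 and 39938 in MC and 46319, 29525, 25061 and 24387 in Lean. MC + Chemo had a lowest value of 23686, a median of 46161 and a highest value of 78446. Every MC library was above every CTRL library, MC 42, 48 and 59 by little, and MC 6 and MC 41 were the only libraries above the highest MC + Chemo library. The log2 fold change of MC against CTRL was 2.94 ± 0.69 (SE), adjusted p = 0.242 by edgeR, and 0.00255 was its adjusted p by DESeq2. The two-sided exact permutation p was 0.0476, where the design allows 0.00794. Here and below, the genes given a permutation p were picked for a low edgeR p on these same values. Their permutation p therefore adds no separate support.

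The gene mt-Nd2, another membrane subunit of complex I, had 9884, 14768, 12191 and 11218 normalized counts in CTRL and 83897, 386437, 14082, 17131 and 11797 in MC, with a log2 fold change of 3.08 ± 0.80 (SE), adjusted p = 0.242 by edgeR. The groups overlapped, since MC 42 and MC 59 lay within the CTRL range, and the exact permutation p was 0.183. For mt-Nd1 the values were 10368, 13740.2, 11483 and 14946 in CTRL and 64275, 188863, 13930.5, 16969 and 13508 in MC, and for mt-Co1, the catalytic core subunit of complex IV, 1894, 2238, 2045 and 2471 and 10982, 38628, 1947, 2403 and 1662. In both, MC 6 and MC 41 were far above CTRL and the other 3 MC libraries were at or near the CTRL range. The remaining genes, mt-Nd3, mt-Nd5 and mt-Nd6, had log2 fold changes of 1.41, 1.79 and 1.91, and mt-Nd3 and mt-Nd6 rested on low counts (8.64 to 28.3 and 11.6 to 48.97 in CTRL). The values of mt-Cytb were 11822, 18211, 7984 and 21386 in CTRL and 123108, 308994, 17856, 20686 and 15346 in MC.

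Among the nuclear catalytic subunits, Sdha, the flavoprotein of complex II, had 432, 495, 519 and 544 normalized counts in CTRL and 1632, 5524, 477, 572 and 549 in MC, with a log2 fold change of 1.81 ± 0.56 (SE), adjusted p = 0.251 by edgeR. Sdhb had 518, 574, 651 and 528 and 1529, 6753, 587, 751 and 719.9, with 1.86 ± 0.57 (SE), adjusted p = 0.251 by edgeR. MC 41 was far above CTRL for both, MC 6 was also above, and MC 42, 48 and 59 were close to CTRL. The iron-sulfur subunit Ndufs1 and the flavin-binding subunit Ndufv1 of complex I had 2142 and 4304 in MC 41 against 179 to 239.6 and 398 to 487 in CTRL. Uqcrc1 and the Rieske protein Uqcrfs1 of complex III had 4296 and 3552 against 342 to 554 and 273 to 477. The alpha and beta subunits of the ATP synthase head, Atp5a1 and Atp5b, had 9605 and 11758 against 1392 to 2020.3 and 1209.7 to 1721. In all, 72 of the 82 nuclear and the 7 mitochondrial members had their highest value of the 24 libraries in MC 41. The share of all murine genes that peaked in MC 41 was not counted.

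The tissue-restricted paralogs of complex IV separated the libraries further. Cox8b had 2.88, 2.90, 8.97 and 2.51 normalized counts in CTRL, 3.60, 5.81, 14.1, 4.07 and 7.60 in Chemo, 1659, 7868, 7.75, 63.7 and 1.29 in MC and 37.7, 14.98, 75.7 and 6.25 in Lean. In MC + Chemo it had 828 in mouse 52, 312 in 43 and 298 in 5, and 3.24 to 14.1 in the other 3. The log2 fold change against CTRL was 8.86 ± 2.21 (SE), adjusted p = 0.242 in MC and 5.89 ± 2.02 (SE), adjusted p = 0.264 in MC + Chemo by edgeR, and DESeq2 called both. Cox8b had few counts in CTRL and Chemo, so it passed the filter on low counts through libraries of MC and MC + Chemo. The exact permutation p was 0.127 in MC and 0.0619 in MC + Chemo, with overlap of the groups in each. Cox7a1 followed the same libraries, with 1275 in MC 6, 4872 in MC 41, 493.1 in MC + Chemo 52, 347 in 43 and 321 in 5, against 8.69 to 25.6 in CTRL.

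Cox6a2 followed these libraries only in part. It had 15.4, 21.2, 14.1 and 15.1 in CTRL and 3.17, 1070.2, 26.2, 369 and 7.77 in MC, and in MC + Chemo 2047 in mouse 43, 1027 in 5, 103 in 47 and 3.86 to 21.04 in the other 3. It was thus low in MC 6 and MC + Chemo 52, where Cox8b and Cox7a1 were high, and high in MC 48, where they were at 63.7 and 43.04. The log2 fold change of MC + Chemo was 5.02 ± 1.66 (SE), adjusted p = 0.252 against CTRL and 4.54 ± 1.46 (SE), adjusted p = 0.283 against Chemo by edgeR, with exact permutation p of 0.295 and 0.316. DESeq2 called the first (adjusted p = 0.0273). Leaving out the 8 marker libraries turned both to negative values, given with the alternatives. That setting removes MC + Chemo 43, 5 and 47, where Cox6a2 was high, so a lower value follows from the choice. Only 2 MC + Chemo libraries remain in it.

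The leading markers of muscle and brown fat were raised in an overlapping set of libraries. Ckm, the muscle creatine kinase, had 2560.3 in MC 41, 498 in MC 48, 2804 in MC + Chemo 5 and 4519.8 in MC + Chemo 43, but 17.5 in MC 6 and 19.4 in MC + Chemo 52, against 5.66 to 12.8 in CTRL. Ucp1, the uncoupling protein that marks brown fat, had 5396 in MC 6, 27205 in MC 41, 2069 in MC + Chemo 52 and 488 in MC + Chemo 5, but 50.8 in MC 48 and 18.6 in MC + Chemo 43, against 6.76 to 83.3 in CTRL. MC 41 was high for both. The part of such tissue in the differences between groups was not tested. Without the 8 libraries with raised markers, the log2 fold change of MC against CTRL was 0.70 for mt-Nd4 and 0.10 for mt-Nd2.

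**Figure D2:**
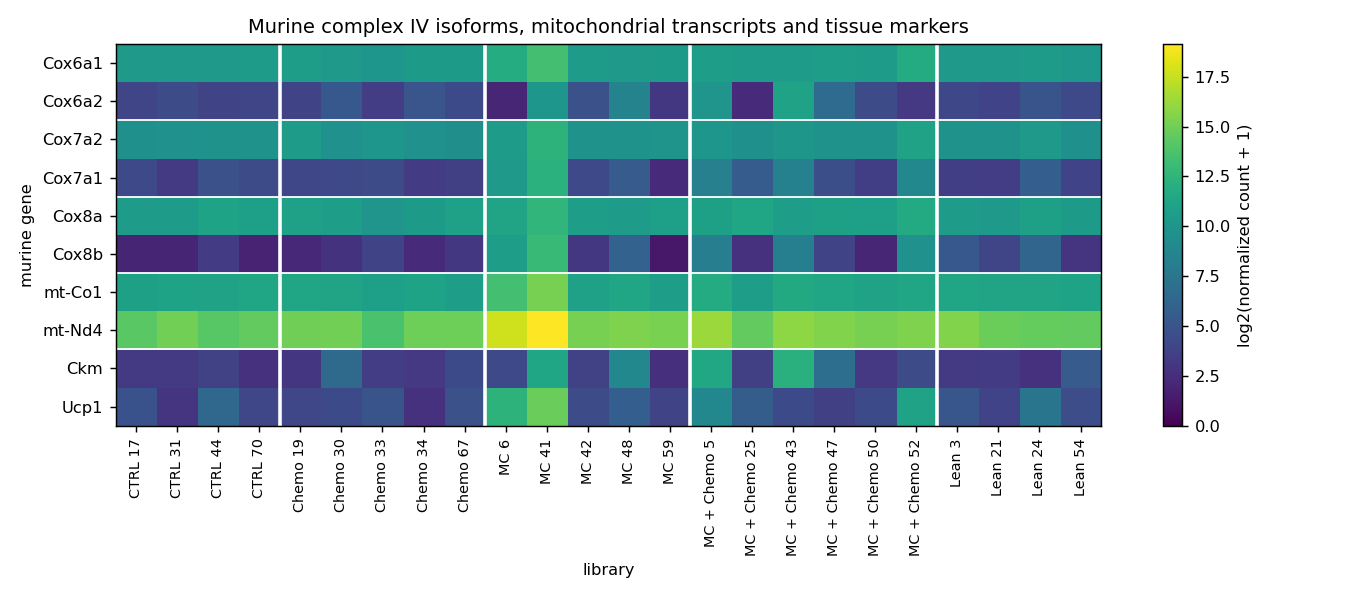
Murine levels as log2 of the normalized count plus 1 (color scale) for complex IV paralogs in pairs (broad form above, restricted form below), mt-Co1, mt-Nd4 and the markers Ckm and Ucp1 (rows) in each of the 24 libraries (columns, white lines between groups). Cox6a2 is bright in the columns where Ckm is bright, and Cox7a1 and Cox8b are brightest in MC 41 and MC 6, the columns where Ucp1 is brightest.

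**Figure D3:**
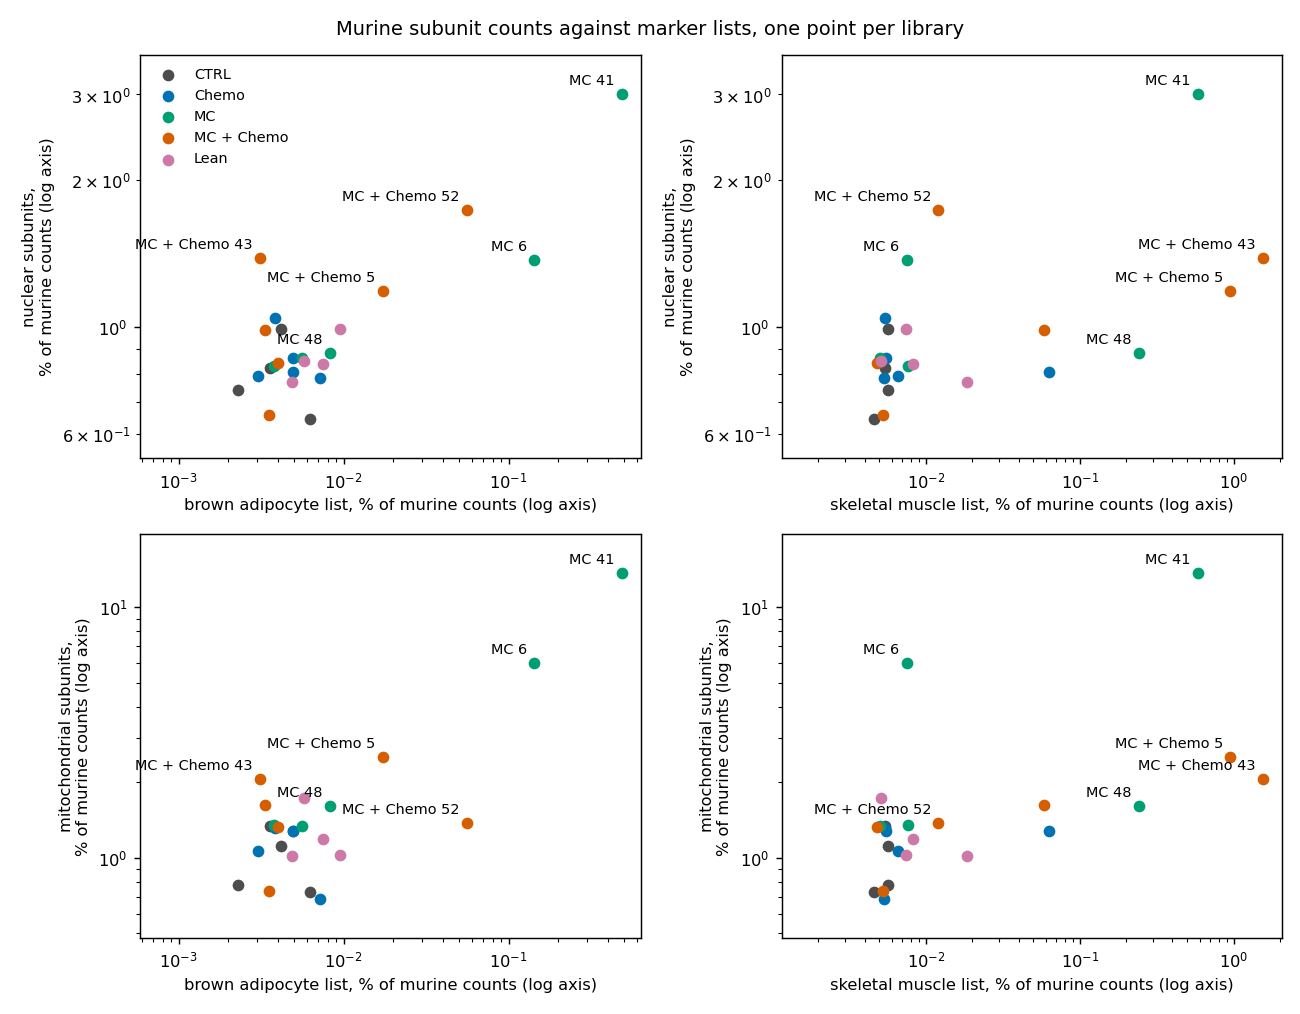
Share of the murine counts taken by the nuclear (top) and mitochondrial (bottom) members against the share taken by the brown adipocyte (left) and skeletal muscle (right) lists, all on log axes, with 1 point per library colored by group. MC 41 is the highest point of each panel, and MC 6 and MC + Chemo 52 are high on the brown adipocyte axis and low on the muscle axis.

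The broad paralogs differed by less. Cox6a1 had 3709.8 in MC 6 and 10996 in MC 41 against 1219 to 1475 in CTRL, Cox7a2 1537 and 5219 against 799.9 to 875, and Cox8a 2281 and 6362 against 1451 to 2192. Cox4i1, Cox6b1, Cox7b and Ndufa4 had 6988, 6399, 3156 and 1450.2 in MC 41, each its highest value of the 24 libraries. Ndufa4l2, a paralog of Ndufa4 known to be induced in hypoxia, was not raised there, with 51.7 in MC 41 and its highest value, 219, in CTRL 17. Cox7a2l, which helps to join complexes into supercomplexes, had 439.9 in MC 41 against 209 to 271 in CTRL. Cox4i2 was at 0 to 21.8 in CTRL and 6.03 to 19.95 in MC, too low to be tested in this fit.

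For MC + Chemo against CTRL, murine members were also mostly higher, by less, and edgeR called none. The median log2 fold change was 0.55 for nuclear and 0.53 for mitochondrial members, beside 0.01 for all genes tested. Of the nuclear members 79 of 81 and of the mitochondrial members 6 of 7 were above 0 (51.1% of all genes). An unadjusted p below 0.05 was found for 7 members, all nuclear and higher (5.1% of all genes higher and 7.34% lower). edgeR called 0 members and 0 genes at an adjusted p below 0.05 (0%), and DESeq2 called Cox8b and Cox6a2 (1.14% of all genes). Of the single libraries, CTRL 17, CTRL 31, MC + Chemo 43 and MC + Chemo 52 each reduced the 7 members to between 2 and 4 when left out, and without MC + Chemo 25 there were 11. Without MC 6 and MC 41, whose spread enters this fit, there were 55. Without the 8 marker libraries there were 0, and the medians were -0.02 and -0.03, with 2 MC + Chemo libraries remaining. Of the mitochondrial genes, mt-Nd4 had a log2 fold change of 1.02 ± 0.62 (SE), adjusted p = 0.500 against CTRL and 0.79 ± 0.57 (SE), adjusted p = 0.623 against Chemo by edgeR, and mt-Co1 of 0.26 and 0.31.

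MC + Chemo was next set against Chemo, which adds the concentrate to the same drugs. The median log2 fold change was 0.54 for nuclear and 0.40 for mitochondrial members, beside 0.02 for all genes tested, with 79 nuclear and all 7 mitochondrial members above 0 (52.9% of all genes). An unadjusted p below 0.05 was found for 9 members, all nuclear and higher (4.4% of all genes higher and 6.57% lower), and edgeR called 0 members (0% of all genes), as did DESeq2 (0.294% of the genes to which it gave an adjusted p). Without MC + Chemo 43 there were 4 such members, as without Chemo 30 or Chemo 33, and without MC + Chemo 5 or 52 there were 5. Without MC 6 and MC 41 there were 56. Without the 8 marker libraries the nuclear median was -0.06 and 2 members had a p below 0.05. Atp5g3, which encodes the c ring of the ATP synthase and shares its mature sequence with Atp5g1 and Atp5g2, had 3687, 2804, 2288, 2941 and 4402 in Chemo and in MC + Chemo a lowest value of 3649, a median of 4738 and a highest value of 7152. The groups overlapped through Chemo 19 and Chemo 67, and the log2 fold change was 0.59 ± 0.20 (SE), adjusted p = 0.285 by edgeR, with an exact permutation p of 0.0195. Whether the effect of the concentrate differed with and without the drugs was not tested.

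Chemo against CTRL and Lean against CTRL gave small differences. In Chemo the median log2 fold change was 0.05 for nuclear and -0.05 for mitochondrial members, beside -0.0021 for all genes, with 52 of 81 and 3 of 7 above 0 (49.7% of all genes). With any 1 library left out, the nuclear median lay between -0.03 and 0.13 and the mitochondrial median between -0.08 and 0.13. At an unadjusted p below 0.05, 1 member was higher (2.13% of all genes) and 1 lower (2.4%), and edgeR called 0 members (0% of all genes), as did DESeq2 (0.132% of the genes to which it gave an adjusted p). Without CTRL 17 or Chemo 19, 30, 34 or 67 there was 1 such member in place of 2. Cox6b2, a paralog of Cox6b1 known from testis, had 10.6, 16.4, 25.6 and 10.1 in CTRL and 28.8, 39.5, 45.4, 19.5 and 41.8 in Chemo, with overlap, a log2 fold change of 1.18 ± 0.34 (SE), adjusted p = 0.757 by edgeR and an exact permutation p of 0.0317. In MC + Chemo it had a lowest value of 23.5, a median of 26.7 and a highest value of 31.3, with a log2 fold change against CTRL of 0.82 ± 0.33 (SE), adjusted p = 0.329 by edgeR and an exact permutation p of 0.0190. Ndufa4l2 had a log2 fold change of -0.74 ± 0.34 (SE), adjusted p = 1.00 by edgeR, and without CTRL 17 it was -0.19.

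In Lean the murine medians were 0.08 for nuclear and 0.10 for mitochondrial members, beside -0.01 for all genes, with 52 of 82 and 5 of 7 above 0 (48.7% of all genes). edgeR called 0 members (0% of all genes) and found 0 members at an unadjusted p below 0.05 in either direction (1.37% of all genes higher and 1.74% lower), and DESeq2 called 0 members (0.00601% of the genes to which it gave an adjusted p). The lowest p were those of Ndufa4l2 (0.120, by edgeR), Cox8b (0.140) and Atp5j (0.206, a peripheral stalk subunit of complex V, 302, 288, 224 and 449 in CTRL and 260.0, 211, 240.5 and 230.0 in Lean, exact permutation p = 0.114). The smallest p that 4 against 4 libraries allow is 0.0286.

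In the human table, made from the reads assigned to human genes, the nuclear members took 1.28, 1.17, 1.15 and 1.30% of the human counts in CTRL, 1.46, 1.15, 1.07, 1.13 and 1.20% in Chemo, 1.15, 1.31, 1.18, 1.21 and 1.26% in MC and 1.15, 1.14, 1.28 and 1.14% in Lean. MC + Chemo ranged from 1.18% to 1.89% with a median of 1.30%. MC + Chemo 52 was the highest of all 24 libraries and Chemo 19 the next, and the groups overlapped. The mitochondrial members took 6.33, 7.08, 9.24 and 6.96% in CTRL, 8.93, 6.46, 5.35, 7.05 and 8.11% in Chemo, 8.15, 7.14, 8.45, 7.69 and 8.38% in MC and 7.61, 5.61, 7.24 and 7.57% in Lean. MC + Chemo ranged from 4.50% to 8.56% with a median of 8.08%. Here MC + Chemo 52 was the lowest of all libraries and CTRL 44 the highest. Human mitochondrial counts outnumbered nuclear member counts 2.38 to 8.01 times, a ratio that cannot be set beside the murine one, since 13 mitochondrial genes enter here and 7 there.

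Human members in Chemo against CTRL differed little from 0. The median log2 fold change was -0.06 for nuclear and -0.04 for mitochondrial members, beside -0.02 for all genes tested, with 28 of 84 and 5 of 13 above 0 (47.7% of all genes). At an unadjusted p below 0.05, 1 member was higher, ATP5MF (7.84% of all genes), and 1 lower, NDUFS1 (10.4%). edgeR called 0 members (0% of all genes), and so did DESeq2 (3.88% of the genes to which it gave an adjusted p). Without CTRL 31 edgeR called 1466 human genes and without CTRL 70 it called 746, with 0 members among them. Without CTRL 31 there were 9 members at a p below 0.05, without CTRL 44 or CTRL 70 there were 6, without Chemo 67 there were 4, and without CTRL 17 or Chemo 33 there was 1. NDUFS1, the largest iron-sulfur subunit of complex I, had 573, 518, 874 and 492 in CTRL and 421, 506, 482, 514 and 525.8 in Chemo, a log2 fold change of -0.34 ± 0.16 (SE), adjusted p = 0.262 by edgeR and an exact permutation p of 0.0873. CTRL 44 was apart from the rest, and without it the log2 fold change was -0.11.

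In MC against CTRL the human nuclear median was 0.02 and the mitochondrial median 0.18, beside -0.02 for all genes tested, with 48 of 84 and 12 of 13 above 0 (46.9% of all genes). At an unadjusted p below 0.05, 3 members were higher, among them COX6A2 and ATP5MF (4.79% of all genes), and 0 lower (5.93%). edgeR called 0 members (0% of all genes), and so did DESeq2 (0.0998% of the genes to which it gave an adjusted p). Without CTRL 44 the mitochondrial median was 0.34. The number at a p below 0.05 was 8 without CTRL 44, 5 without CTRL 31 or MC 6, and 1 without CTRL 17, MC 48 or the 8 libraries with raised murine markers.

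In MC + Chemo against CTRL the human nuclear members were mostly higher by a small amount. The median log2 fold change was 0.22 for nuclear and 0.13 for mitochondrial members, beside -0.02 for all genes tested, with 70 of 84 and 9 of 13 above 0 (47.5% of all genes). At an unadjusted p below 0.05, 8 members were higher (9.19% of all genes) and 1 lower (13.5%), all nuclear, so the share of members higher was close to that of all genes. edgeR called 0 of the 97 members and 2.09% of all genes, and DESeq2 called 2 members, among them ATP5MF (7.16% of all genes). Without MC + Chemo 52 the nuclear median was 0.08 and the mitochondrial median 0.25, and edgeR called 0 genes. Without the 8 libraries with raised murine markers there was 1 member at a p below 0.05 in place of 9, and the nuclear median was 0.03. Without CTRL 44 there were 18 members at a p below 0.05. Without CTRL 31 edgeR called 2 of the 97 members, among them ATP5MF, beside 1501 of all human genes. Complex by complex, the nuclear medians ran from 0.14 for complex II to 0.22 for complex V.

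Against Chemo, the human nuclear members in MC + Chemo had a median of 0.25 and the mitochondrial members of 0.09, beside 0.01 for all genes tested. Of these, 79 of 84 and 10 of 13 were above 0 (51.3% of all genes). At an unadjusted p below 0.05, 18 members were higher, all nuclear (3.29% of all genes), and 0 lower (7.13%), and edgeR called 0 members (0% of all genes), as did DESeq2 (0.107% of the genes to which it gave an adjusted p). Without the 8 libraries with raised murine markers there were 0 members at a p below 0.05 and the nuclear median was 0.05, with 2 MC + Chemo libraries remaining. Without MC + Chemo 52 there were 6 and the nuclear median was 0.11. Without Chemo 19 there were 33, and without Chemo 30, 33 or 34 between 7 and 11.

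ATP5MF, a membrane subunit of the ATP synthase, had 697, 1177, 989 and 969 in CTRL, 1713, 1129.7, 1283, 1012 and 1277 in Chemo, 1242, 1174, 1126, 1376 and 1463 in MC and 1303, 1132, 1218 and 1141 in Lean, and MC + Chemo had a lowest value of 1215, a median of 1326 and a highest value of 2268. Every MC + Chemo library was above every CTRL library, and CTRL 17 was the lowest of the 24. The log2 fold change of MC + Chemo against CTRL was 0.60 ± 0.19 (SE), adjusted p = 0.0753 by edgeR with an exact permutation p of 0.00476, and 0.43 without MC + Chemo 52. The permutation p is the smallest that 4 against 6 libraries allow. ATP5MF was picked for its low edgeR p on these same values, so this p adds no separate support. The share of all human genes that separate in this way was not counted. Against CTRL the log2 fold change in Chemo was 0.41 ± 0.19 (SE), adjusted p = 0.260 and in MC 0.41 ± 0.19 (SE), adjusted p = 0.456 by edgeR. UQCR11, a small accessory subunit of complex III, had 1541, 2769, 2144 and 2182 in CTRL and 4318, 3013, 3106, 2398 and 2341 in Chemo, and in MC + Chemo a lowest value of 2241, a median of 3143 and a highest value of 5668. CTRL 17 was lowest and MC + Chemo 52 highest again, and the log2 fold change was 0.48 ± 0.23 (SE), adjusted p = 0.278 in Chemo and 0.62 ± 0.23 (SE), adjusted p = 0.114 in MC + Chemo by edgeR. NDUFC2, an accessory subunit of the membrane arm of complex I, had 1746, 1419.7, 1199, 1337 and 1966 in Chemo and in MC + Chemo a lowest value of 1669, a median of 1899.9 and a highest value of 2484, with a log2 fold change of 0.37 ± 0.13 (SE), adjusted p = 0.336 by edgeR and an exact permutation p of 0.0390.

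**Figure D4:**
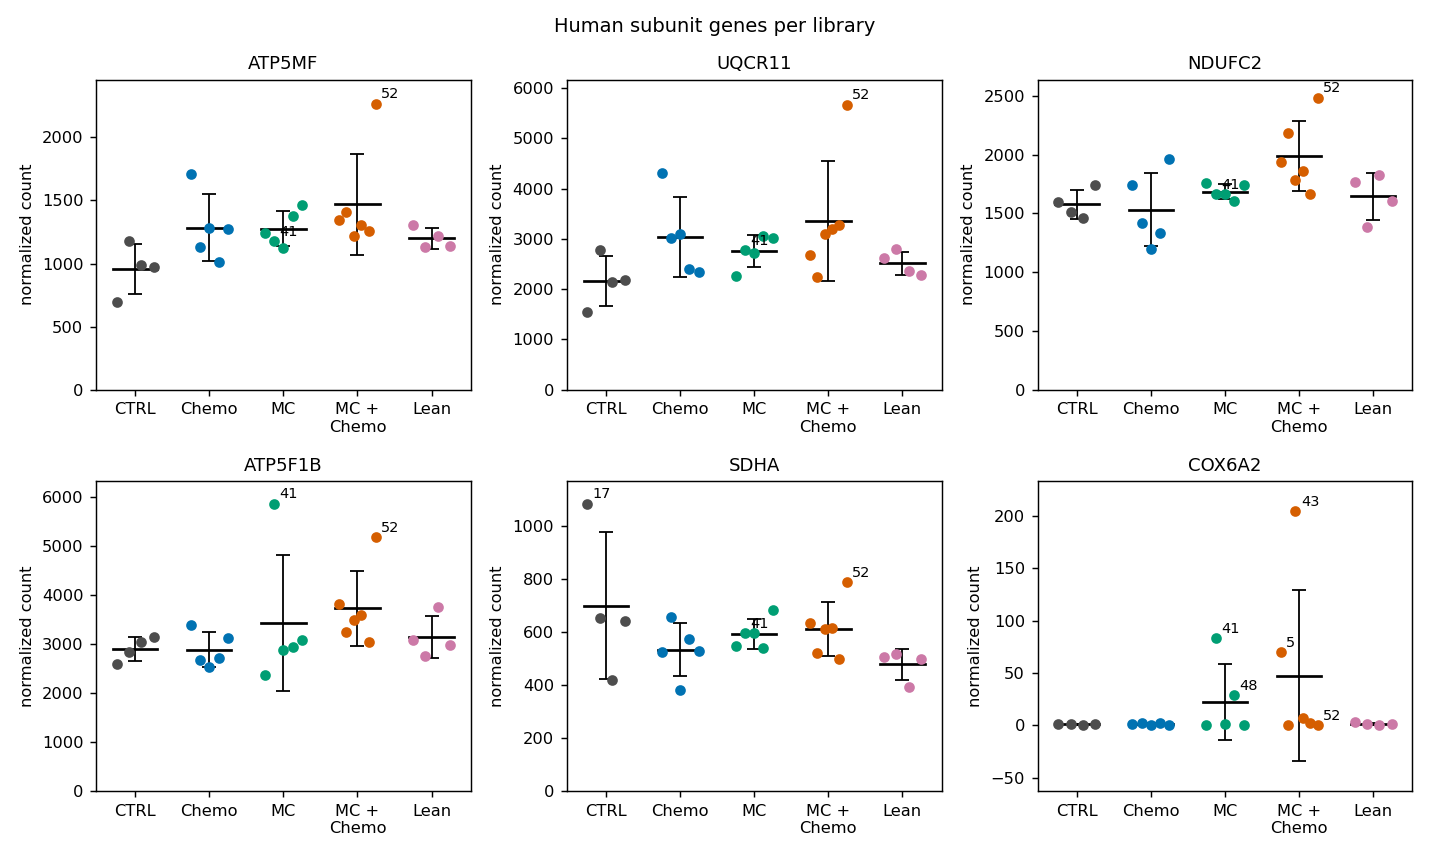
Normalized counts of 6 human members (vertical axes, linear) by group, with 1 point per library, a thick line at the group mean and a bar of ± 1 SD. Numbers mark single mice: MC + Chemo 52 is the highest library for ATP5MF, UQCR11 and NDUFC2, MC 41 for ATP5F1B and CTRL 17 for SDHA, and COX6A2 is above 20 in 4 libraries.

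In Lean against CTRL the human medians were -0.09 for nuclear and -0.06 for mitochondrial members, beside -0.02 for all genes tested, with 29 of 84 and 3 of 13 above 0 (47.5% of all genes). At an unadjusted p below 0.05, 0 members were higher (2.77% of all genes) and 1 was lower, SDHA (4.31%). edgeR called 0 members (0% of all genes), as did DESeq2 (0.0106% of the genes to which it gave an adjusted p). SDHA had 1085, 654, 422 and 643 in CTRL and 508, 519.8, 393 and 499 in Lean, a log2 fold change of -0.55 ± 0.20 (SE), adjusted p = 0.685 by edgeR and an exact permutation p of 0.114. Without CTRL 17, 0 members had a p below 0.05, without CTRL 31 or CTRL 70 there were 4, without CTRL 44 there were 3 and without Lean 24 there were 2. CTRL 17 was the highest library for SDHA, and without it the log2 fold change was -0.26. The next lowest p were those of COX7A2L (0.0710, by edgeR, exact permutation p = 0.257) and ATP5F1C, the gamma subunit of complex V (0.0970, by edgeR, exact permutation p = 0.229).

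The 13 human mitochondrial genes had no unadjusted p below 0.05 in any of the 5 comparisons by edgeR. In MC against CTRL, 12 of the 13 were higher, from -0.15 for MT-CO3 to 0.43 for MT-ND5 on the log2 scale. MT-ND5 had 13366, 21335, 22409 and 17866 normalized counts in CTRL and 25149, 28393, 25938, 21126 and 26186 in MC, where 4 of the 5 MC libraries were above every CTRL library. MT-ND4 had 128849, 145366, 170234 and 126980 and 171802, 156112, 189422, 168832 and 189474, with overlap. MT-CO1 had 16877, 21432, 19061 and 21088 and 24337, 28155, 26267, 20758 and 24686, and MT-CYB, the membrane core of complex III, 41876, 52854, 58820.1 and 47152 and 63779, 45456, 70169, 56104 and 67032. MT-CO2 and MT-CO3 had means of 83166 ± 7006 (SD, n = 4) and 138519 ± 47086 (SD, n = 4) in CTRL and 87367 ± 7858 (SD, n = 5) and 125630 ± 9574 (SD, n = 5) in MC. For MT-ND1, MT-ND2, MT-ND3 and MT-ND4L the log2 fold changes were 0.18, 0.23, 0.14 and 0.14, and for MT-ND6, MT-ATP6 and MT-ATP8 0.08, 0.28 and 0.08. In the libraries in which the murine mitochondrial genes were high, the human ones as a set were near the level of the other 23 libraries. In MC 41 the median ratio was 1.0005 (0.810 to 1.70) and in MC 6 1.13 (0.985 to 1.85), so single genes were higher there.

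In MC + Chemo 52 that ratio was 0.616, with 0.156 for the lowest gene, MT-ATP8, which had 3523 there against 15037 to 40090.1 in CTRL. In the same library 57 of the 84 human nuclear members had their highest value of the 24. Of the human nuclear members 60 were at 1.5 times the median of the other libraries or more, and of the 82 murine nuclear members 76. The shares of all human and all murine genes that did so were not counted, so these counts cannot be read as particular to the members. Genes of ribosomal proteins, a group of other short and abundant transcripts chosen after these values were seen, moved with them. They took 6.63% of the murine and 12.5% of the human counts in MC + Chemo 52, the highest of the 24 libraries in each table, where the medians were 4.10% and 8.06%. In MC 41, by contrast, they took the lowest share of each table, 1.93% and 7.29%. The part of such library properties in the member values was not tested.

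COX6A2, the muscle form of subunit 6A, had the widest log2 fold changes of the human members, and its counts followed those of the murine gene. Its normalized counts were 1.82, 1.08, 0.863 and 1.40 in CTRL and 0, 83.6, 1.21, 28.9 and 0 in MC, and in MC + Chemo 204 in mouse 43, 70.2 in 5, 6.81 in 47 and 2.35 or less in the other 3. Human counts were 6.02% of the murine Cox6a2 counts in MC 41, 6.53% in MC 48, 6.38% in MC + Chemo 5 and 8.63% in MC + Chemo 43. Over the 24 libraries there were 420 human and 5813 murine counts. The pooled count of MC + Chemo was 34.6 times that of CTRL per unit of size factor (95% interval 15.7 to 94.98, exact, counting error alone), from 303 and 6 counts. By edgeR the log2 fold change was 5.04 ± 1.77 (SE), adjusted p = 0.104, the groups overlapped, and the exact permutation p was 0.300. COX6A2 had 6 counts in CTRL and 5 in Chemo, and it passed the filter on low counts only through libraries of MC and MC + Chemo. Its fold changes and the interval carry that selection. The human symbols of the skeletal muscle list took 0.105% of the human counts in MC 41 and 0.156% in MC + Chemo 43, against at most 0.00771% in CTRL, so human counts of other muscle genes were raised in the same libraries. Whether reads of the murine genes were counted for the human ones was not tested.

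MC 41, the library with the largest murine share, was also the highest of the 24 for 15 human nuclear members. In it 21 were at 1.5 times the median of the other libraries or more, but the median ratio over the human nuclear members was 1.08. The shares of all human genes that did so were not counted. COX8A had 6380.4 in MC 41 and 2613 to 4153 in CTRL, ATP5F1B, the beta subunit of the ATP synthase, 5856 and 2589 to 3145, and ATP5F1A, the alpha subunit, 3299.6 and 1547 to 2145. UQCRC1 had 1469.8 and 546 to 986, NDUFV1 1273 and 598 to 788, and SDHB 699 and 330.2 to 478. UQCRHL, a copy of UQCRH without introns, had 202 and 23.3 to 72.96. UQCRFS1 was within its CTRL range at 655. The murine Cox8a, Atp5b, Atp5a1, Uqcrc1, Ndufv1, Sdhb and Uqcrh were at their highest in the same library. The human members were not raised in this way in MC 6, where 3 reached 1.5 times the median. Why these human members were higher in MC 41 was not tested.

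The broad human paralogs differed by less. COX4I1 had 2492 ± 27.1 (SD, n = 4) normalized counts in CTRL and 3082 ± 727 (SD, n = 6) in MC + Chemo, COX6A1 1455 ± 108 (SD, n = 4) and 1776 ± 434 (SD, n = 6), and COX6B1 2062 ± 197 (SD, n = 4) and 2531 ± 427 (SD, n = 6). COX7A2 had 2243 ± 194 (SD, n = 4) and 2766 ± 786 (SD, n = 6), COX7B 1982 ± 412 (SD, n = 4) and 2462 ± 696 (SD, n = 6), and NDUFA4 3429 ± 656 (SD, n = 4) and 3547 ± 612 (SD, n = 6). None of these differences passed the test. In MC + Chemo 52, COX4I1, COX6A1, COX6B1, COX7A2 and COX7B were at 1.5 times the median of the other libraries or more. The MC + Chemo means of these genes thus rest in part on that library. The restricted forms COX6B2 and COX7B2, known from testis, stayed at 0 to 11.9 and 18.99 to 123 in CTRL and 4.09 to 11.2 and 28.97 to 109 in MC + Chemo, and NDUFA4L2 at 15.4 to 57.4 and 14.8 to 36.7.

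Other genes of mitochondrial energy metabolism were read from 4 lists. In the murine table, MC against CTRL, the 12 genes of the tricarboxylic acid cycle had a median log2 fold change of 1.99, with 11 at an unadjusted p below 0.05, and the 44 assembly factors, which build the complexes without being part of them, 0.51 with 17. The 14 regulators of mitochondrial gene expression had 0.42 with 6, and the 4 electron carriers and other subunits 1.75 with 3. All of these were higher in MC, the direction in which 8.73% of all genes had such a p. edgeR called 0 genes of these lists. The tricarboxylic acid cycle genes took 0.240% of the murine counts in MC 6 and 0.642% in MC 41, but 0.0707% to 0.0730% in the other 3 MC libraries, against 0.0629% to 0.0723% in CTRL. Ppargc1a, a coactivator of mitochondrial biogenesis, had 4.80, 12.6, 28.2 and 11.3 in CTRL and 156, 307, 5.36, 7.75 and 9.06 in MC, and Cs, citrate synthase, 245, 322, 229 and 324 and 1187, 3767, 327, 314 and 287. Both were high in MC 6 and MC 41, as the subunits were, and Tfam, which binds and transcribes mitochondrial DNA, was less so (108 and 218 against 101 to 128 in CTRL).

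In MC + Chemo against CTRL the murine tricarboxylic acid cycle list had a median of 0.67, with all 12 genes above 0 and 0 at an unadjusted p below 0.05. The assembly factors had 0.32, with 3 of 44 higher at that p (5.1% of all genes). In Chemo the medians of the 4 lists ran from -0.02 to 0.06 and in Lean from -0.10 to 0.08. In the human table, the assembly factors had medians of -0.05 for Chemo, -0.12 for MC, 0.04 for MC + Chemo and -0.09 for Lean, each set against CTRL. In the same order the human tricarboxylic acid cycle genes had -0.18, 0.09, 0.12 and -0.04, the regulators -0.08, -0.04, -0.13 and -0.07, and the electron carriers and other subunits -0.23, -0.03, -0.01 and -0.12. At an unadjusted p below 0.05 in MC, 2 human regulators and 2 tricarboxylic acid cycle genes were higher (4.79% of all genes), and 1 regulator was lower (5.93%). The higher regulators were PPARGC1A, at 1.92 (adjusted p = 0.430 by edgeR), and PPARGC1B, at 1.94 (adjusted p = 0.406 by edgeR). edgeR called 0 human genes of these 4 lists in these comparisons.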

How the data were processed

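RNA from 24 xenograft tumors was read with oligo(dT)-primed 3′ libraries, each with 50-base forward reads. The deposited counts per gene, made by the authors with the BlueBee software, come in a human and a murine table from the same libraries. Per the labels the build is GRCm38. A human build, the strand setting, the handling of reads that fit several genes and of reads that fit both species are not given in the sources used here, so no coordinates are printed. The deposited normalized counts, a signal per gene, are the counts that the authors divided by 1 DESeq2 size factor per library (version 1.22.2 in the labels). No row sum was below 72 in either table. Levels are quoted from the normalized counts and shares from the counts.

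Groups were compared with edgeR 4.0.16 (TMM scaling, filterByExpr, quasi-likelihood F test, two-sided), with Benjamini-Hochberg adjustment over all genes tested in a table and calls at an adjusted p below 0.05. The 20 high fat libraries entered 1 fit for the comparisons among them, and all 24 entered the fit for Lean. The SE beside an edgeR log2 fold change is its absolute value divided by the square root of the F statistic. Each library is 1 mouse. No mouse number occurs in more than 1 group. Exact permutation tests for single genes were two-sided, over libraries, on log2 of the normalized count plus 1. Identical counts were found in 0 of 47 within-group library pairs. Steps were tested on simulated data.

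The genes named are all mitochondrial members, the complex IV and NDUFA4 paralogs, 8 catalytic subunits, the member with the highest mean in each complex, members called and the 3 members with the lowest p in each comparison. UQCRHL, Ndufs5, Atp5l, Atp5g2, mt-Cytb, the genes called by DESeq2 alone and the genes of other lists were named with their values in view. Alternatives were DESeq2 1.42.0, RLE scaling, no filter, the 2 groups alone, MC + Chemo 5 placed in MC, another list of members, another denominator, the 3 libraries with a cleanup left out, and each library left out. Leaving out MC 6 with MC 41, and the 8 libraries with raised markers, was added after seeing the data. The members, the lists and the tests were chosen with earlier results of these data known. Values of 1 member are not reported here. Intervals cover counting error only.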

Additional observations from a re-analysis of the deposited data

Results flagged for a closer look

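In groups of 4 to 6 libraries, the highest or lowest value was compared with the others of its group by Dixon's ratio at the 95% level, which chance passes in about 5% of groups. Of 74 sets of values, 11 passed.

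In the murine table, MC 41 stood apart within MC for the nuclear share (3.01% of the murine counts), for Cox8b (7868 normalized counts) and for mt-Nd2 (386437). MC + Chemo 52 stood apart within its group for Cox8b (828). Within CTRL, library 44 did so for Cox8b at a low level (8.97) and library 31 for the number of mitochondrial per nuclear counts (1.63).

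In the human table, MC + Chemo 52 stood apart for the nuclear share (1.89% of the human counts) and ATP5MF (2268), and MC + Chemo 43 for COX6A2 (204). Lean 24 had the highest nuclear share (1.28%) and the lowest SDHA (393) of its group.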

How the results depend on the processing

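No paired analysis was possible because the mouse numbers are not shared between groups. DESeq2 called 17 murine members in MC against CTRL, 2 murine members in MC + Chemo against CTRL and 2 human members in MC + Chemo against CTRL, where edgeR called 0. With 1 library left out, edgeR called 0 to 2 human members in the last comparison, the 2 without CTRL 31, where it called 1501 human genes. Without MC 6 and MC 41 the murine medians of MC against CTRL were 0.13 (nuclear) and 0.25 (mitochondrial). Without the 8 libraries with raised markers they were 0.0820 and 0.105, those of MC + Chemo against CTRL -0.0218 and -0.0300, and the nuclear median of MC + Chemo against Chemo -0.0624. In the same setting the human nuclear median of MC + Chemo against CTRL was 0.0255, and Cox6a2 had log2 fold changes of -0.27 against CTRL and -0.50 against Chemo in MC + Chemo. With 1 library left out, the human mitochondrial median of MC against CTRL ran from 0.14 to 0.34, and Ndufa4l2 in Lean from -0.71 to 0.0092, positive without CTRL 17. As a percent of murine plus human counts, the log2 ratio of the human nuclear share of MC to that of CTRL was -0.11. Members at an unadjusted p below 0.05 were 36 in the murine MC + Chemo against CTRL fit of the 2 groups alone, 40 without the 3 cleanup libraries and 7 in the fit reported. Against Chemo they were 43, 38 and 9, and 5 with MC + Chemo 5 in MC. Human genes called in MC + Chemo against CTRL were 343 in the fit reported, 0 when MC + Chemo 47, MC + Chemo 52, CTRL 44 or CTRL 17 was left out, 0 in the fit of the 2 groups alone, and at most 1501 with another library left out. Beyond construction (fewer libraries), the causes were not tested. Of 174 alternatives each, 170 kept the count of members called, which was 0 in each edgeR fit reported. The nuclear median stayed within the spread of the groups in 169 and the mitochondrial median in 170. That spread was wide, and the murine nuclear median of MC against CTRL ran from 0.42 to 1.37 with 1 library left out. Single genes, members at an unadjusted p below 0.05 and all genes called were less stable. Of their 853 alternatives, 744 were the same, 97 moved, 9 were stronger and 3 reversed.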
